A study of Mus musculus with 24 samples.

Results

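The replication-dependent histone genes are the mouse genes whose older symbols begin with Hist1h, Hist2h, Hist3h or Hist4h, after the genome cluster in which they lie. Members were chosen by name alone: every gene in both expression tables whose GENCODE vM21 symbol begins this way, apart from those whose symbol ends in -ps and a number. The rule gave 67 of the 30428 genes present in both tables. Of the 70 symbols that fit the name rule, Hist1h2aj, Hist1h2ba and Hist2h3c1 were not in both tables and were not analysed here. The 67 members comprise 6 H1, 19 H2A, 18 H2B, 11 H3 and 13 H4 genes. Of these, 54 belong to Hist1 (GRCm38 chr13:21715763-23934851 for the main block), 9 to Hist2 (chr3:96219865-96270132), 3 to Hist3 (chr11:58948920-58956830) and 1, Hist4h4, to Hist4 (chr6:136801553-136804415). Hist3h2bb-ps and Hist1h2al, the second of which lies apart at chr13:51202727-51203065, are annotated as pseudogenes.

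The libraries came from a study of acquired resistance to immune checkpoint blockade in lung cancer. Mice were injected with tumour cells of a syngeneic line, tumours were taken on day 15, and live cells without the leukocyte surface protein CD45 were sorted after lysis of red cells. LLC1 is the Lewis lung carcinoma line, and KP is a line from a mouse lung cancer model with p53 flox/flox alleles. Total RNA was made into stranded libraries, 3 per group. The study calls them biological replicates, and whether the 3 came from separate animals is not stated, so p-values measure the spread between these libraries only. The LLC1 groups were Chronic IFNG LLC1 (exposed to low-level interferon gamma for a long time), Relapsed LLC1 (from tumours that relapsed after checkpoint blockade) and Parental LLC1. The KP groups were Chronic IFNG KP, 1st relapse KP, 2nd relapse KP, Late relapse KP and Parental KP. All KP groups are of the same line, no group has a treatment in its label beyond its name, and how the relapsed lines were derived is not given in the sources used here.

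Histones H2A, H2B, H3 and H4 form the protein core of the nucleosome, and H1 binds the linker DNA between nucleosomes. Most of their messenger RNA is made in S phase, when new DNA has to be packaged, and it differs from other messenger RNA in ending not with a poly(A) tail but with a short stem-loop, which is bound by stem-loop binding protein (Slbp). Some members are also known to give polyadenylated transcripts outside S phase, and libraries from total RNA hold both forms.

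The stem-loop is shown here because it defines the class and because its letters recur across clusters. A search of GENCODE vM21 transcripts (GRCm38) for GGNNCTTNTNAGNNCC with complementary stem arms found it in 45 of 67 members (67.2%), against 61 of 55450 genes of the whole annotation (0.110%). The form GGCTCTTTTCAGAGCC alone was carried by 25 members. In these lines, capitals mark the match and 5 bases on each side are given in lower case, as DNA.
Hist1h1c: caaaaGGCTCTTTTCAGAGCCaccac
Hist1h2ac: ccaaaGGCTCTTTTCAGAGCCcccac
Hist2h2aa2: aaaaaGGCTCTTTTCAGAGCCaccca
Hist1h3a: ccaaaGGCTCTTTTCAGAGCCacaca
Hist4h4: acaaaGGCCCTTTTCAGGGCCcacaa
Hist2h4: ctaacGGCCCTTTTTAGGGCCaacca
The stem is the same in the first 4, which are H1, H2A and H3 genes of 2 clusters, and the H4 genes Hist4h4 and Hist2h4 differ from them in both arms. By family, the motif was found in 4 of 6 H1, 11 of 19 H2A, 10 of 18 H2B, 8 of 11 H3 and 12 of 13 H4 genes. The annotated transcripts of Hist1h1a (741 bases) and Hist1h1b (743 bases) hold no match, which says only that these letters are not in those transcripts.

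Promoters are shown for Hist1h1a and Hist1h1c, a pair of H1 genes with opposite differences in the Late relapse KP libraries. RefSeq promoters of GRCm38.p6, which run from 250 bases before to 50 after the start of the gene, matched 60 of 67 members. CCAAT was present on either strand in 51 of the 60 (85.0%), against 37.4% of all 32851 promoters. It was present in every matched H1, H2A, H2B and H3 promoter and in 3 of 12 H4 promoters (25%). TATAA was present in 48 members (80%) against 24.9%, and TTTCGCGC in 9 members (15.0%), 5 H2A and 4 H2B genes, against 0.323%. TTTGGCGC was found in none of the 60, against 0.514%. AAACACA was found in 8 members (13.3%) against 7.18%, and 5 of these were among the 6 H1 genes, where Hist1h1a was the exception. Both strands were searched for each motif, and matches that overlap were each counted. The 250 bases before the start are printed here for Hist1h1a (chr13:23763418-23763667, plus strand) and Hist1h1c (chr13:23738557-23738806, plus strand), with matches in capitals.
Hist1h1a: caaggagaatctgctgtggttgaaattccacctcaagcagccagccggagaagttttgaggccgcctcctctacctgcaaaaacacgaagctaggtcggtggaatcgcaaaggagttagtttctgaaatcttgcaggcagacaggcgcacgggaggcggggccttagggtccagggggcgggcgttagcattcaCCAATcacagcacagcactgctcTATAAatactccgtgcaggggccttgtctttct
Hist1h1c: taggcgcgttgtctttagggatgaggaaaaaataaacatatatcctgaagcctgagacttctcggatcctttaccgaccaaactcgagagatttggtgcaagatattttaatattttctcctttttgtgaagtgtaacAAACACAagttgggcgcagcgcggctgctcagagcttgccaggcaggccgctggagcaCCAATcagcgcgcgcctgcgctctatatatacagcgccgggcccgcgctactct
Both promoters have CCAAT in the same stretch shortly before the start. Hist1h1a has TATAA after it, and Hist1h1c has AAACACA before it.

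Values are normalised read counts, back-calculated from the deposited log2-scale values, and differences are given on the deposited scale, on which the change of a gene with few counts is understated. Estimated depth ran from 13394090 to 34961559 reads per LLC1 library and from 13721825 to 32920532 per KP library. A gene was tested where its mean in at least 1 group lay 1 log2 unit above the lowest value of its table, about 130.4 counts in LLC1 and 144.2 in KP. By this filter 60 members were tested in LLC1 and 59 in KP, and the others, which include the testis genes Hist1h1t (at most 34.1 counts in any library) and Hist1h2aa (at most 3.35), were below it. Differences were tested with limma across all 10581 (LLC1) or 11193 (KP) genes that passed, and called at a Benjamini-Hochberg adjusted p below 0.05. Many members are near copies of each other: 40 of 67 had under 50% of their 31-base words unique among annotated transcripts, and counts of such genes are uncertain, because reads may be split between copies. The CD45- label was checked against markers: Ptprc, which encodes CD45, lay between 0.288 and 9.66 CPM in all libraries, where CPM is a gene's count relative to the total of its library, and the keratin gene Krt8 between 94.6 and 186 in LLC1 and between 1986 and 3766 in KP. Of the other 5 genes of a list of 6 pan-leukocyte markers, Arhgdib lay between 8.84 and 29.6 CPM in LLC1 and Cd53 between 16.5 and 118 in KP, and the rest were at most 9.03. Epcam was at 0 in 2 LLC1 libraries and at most 1.22 CPM in that line, against 27.2 to 382 in KP.

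Histone messages were more abundant in the Relapsed LLC1 libraries than in the other LLC1 groups. Summed over the 67 members, the 3 libraries of Relapsed LLC1 had 140322, 151990 and 142476 counts, those of Chronic IFNG LLC1 66925, 69767 and 74409, and those of Parental LLC1 80393, 97161 and 85840. The 3 groups did not overlap, with relapsed libraries highest and chronic libraries lowest. Group means were 144929 ± 6209 for Relapsed, 70367 ± 3778 for Chronic IFNG and 87798 ± 8554 for Parental LLC1 (SD, n = 3 each), 1.65-fold and 0.801-fold of the parental mean. As a share of all counts, the members took 0.633% in Relapsed, 0.309% in Chronic IFNG and 0.375% in Parental LLC1. In bulk samples, fewer cells making a message and less of it per cell cannot be told apart.

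In KP, the sums followed another course. Parental KP libraries had 55389, 53041 and 50979 counts, 1st relapse KP 74526, 64602 and 65515, 2nd relapse KP 70092, 55797 and 75846, and Late relapse KP 48109, 44277 and 47332. In these counts the 1st and 2nd relapse libraries all lay above the parental range, and the late relapse libraries all lay below it. The means were 53136 ± 2206 for Parental, 68214 ± 5485 for 1st relapse (1.28-fold), 67245 ± 10323 for 2nd relapse (1.27-fold) and 46573 ± 2026 for Late relapse KP (0.876-fold; SD, n = 3 each). Chronic IFNG KP libraries, with 55335, 58146 and 66947 counts, overlapped the parental range, 1.13-fold by their means. As a share of all counts they lay above it.

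**Figure D1:**
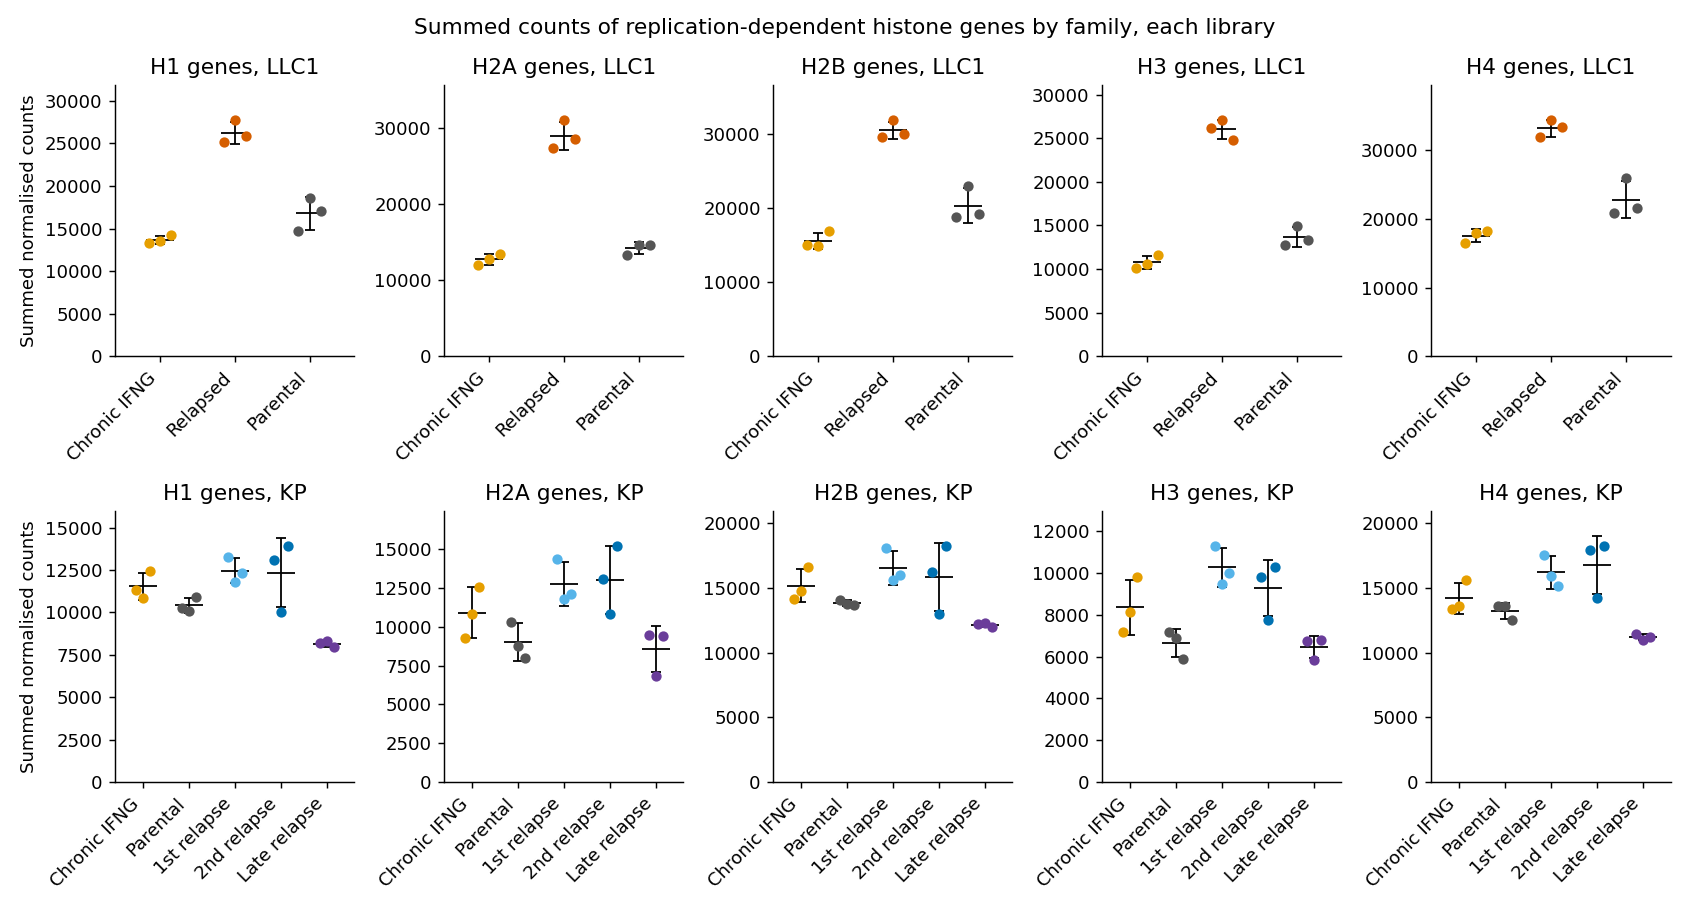
Summed normalised counts (linear axis from 0) of the H1, H2A, H2B, H3 and H4 families in each library; the upper panels hold LLC1, the lower panels KP, points are libraries and bars are group means with SD (n = 3). All 5 families are highest in Relapsed LLC1, and in KP the H1, H2B and H4 sums of the late relapse libraries lie below every parental library.

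Among Relapsed LLC1 libraries, 56 of the 60 tested members rose against Parental LLC1 and 2 fell, where 25.9% of all tested genes rose and 19.5% fell. In 55 members all 3 relapsed libraries lay above all 3 parental libraries (33.6% of all genes), and in 2 they lay below (25.2%). The median difference of the members was 0.54, with a range from -0.58 to 1.48, beside 0.03 for all genes. By family, 5 of 5 H1, 15 of 16 H2A, 14 of 16 H2B, 11 of 11 H3 and 11 of 12 H4 genes rose. The family sums ranged from 1.46-fold for H4 (33171 ± 1223 against 22764 ± 2722 counts) and 1.9-fold for H3 (26014 ± 1135 against 13713 ± 1127) to 2.04-fold for H2A (28985 ± 1877 against 14216 ± 768). Against Chronic IFNG LLC1, 55 members rose and 0 fell by limma, also 0 at an unadjusted p below 0.05, where 31.5% of all genes rose and 20.5% fell. The median difference there was 0.78. Of all tested genes, 45.4% were called either way for Relapsed against Parental LLC1 and 52.0% for Relapsed against Chronic IFNG LLC1.

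In Chronic IFNG LLC1, 26 of the 60 tested members fell against Parental LLC1 and 1, Hist1h2ai, rose, where 15.5% of all tested genes fell and 9.03% rose. The median difference was -0.21, with a range from -1.05 (Hist1h2br, not called) to 0.61 (Hist1h2ai), beside -0.02 for all genes, of which 24.5% were called either way. By family, 3 of 5 H1, 5 of 16 H2A, 7 of 16 H2B, 5 of 11 H3 and 6 of 12 H4 genes fell. The H2B sum was 15619 ± 1096 counts in Chronic IFNG and 20334 ± 2337 in Parental LLC1, 0.768-fold, and the H2A sums overlapped (12743 ± 715 against 14216 ± 768). A list of 12 fibroblast markers summed to between 22619 and 35606 CPM in Chronic IFNG LLC1, against 11841 to 16816 in Parental LLC1, with 9 of 12 called higher and none at 0. Most of this sum came from Col3a1, which lay between 9185 and 27703 CPM across LLC1 libraries. The next highest gene, Col6a3, was at most 3783 CPM, and Col1a1 was at most 274. The sum is thus mainly a measure of 1 gene, and the cells that make it were not identified. The part of this list in the lower histone values was not tested. In Relapsed LLC1 the same list summed to between 13159 and 14922 CPM, which overlapped the parental range, and 7 of 12 were called lower.

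Among 1st relapse KP libraries, 39 of the 59 tested members rose against Parental KP and 3 fell, where 25.4% of all tested genes rose and 25.5% fell. Among 2nd relapse libraries, 34 rose and 2 fell, beside 36.8% and 29.0% of all genes. Among late relapse libraries, 8 rose and 19 fell, beside 31.0% and 25.9% of all genes, so that the share of members that rose was below the background. The median differences were 0.26, 0.21 and -0.09 for the 1st, 2nd and late relapse libraries, beside -0.01, 0.03 and 0.01 for all genes. Of all genes, 50.9%, 65.8% and 56.9% were called either way. These 3 comparisons share the parental libraries. Late relapse against 1st relapse KP, a comparison chosen after the data were seen that does not use them, gave 2 members that rose and 48 that fell, where 24.6% of all genes rose and 23.5% fell, with a median of -0.36 (48.1% of all genes called either way). Members were also grouped as copies where over 50% of the 31-base words of a gene occurred in another member, directly or in a chain. Such a group can hold a gene whose own words are mostly unique. With the counts of these copies summed before the test, each member carries the sum of its group. A group of copies thus counts once per gene, and the late relapse count against Parental KP became 6 higher and 39 lower. Counted once per group of copies, 5 of 19 units rose and 8 fell, with a median of 0.00095.

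In Chronic IFNG KP, 7 members rose against Parental KP and 1 fell, where 12.8% of all tested genes rose and 9.0% fell (21.8% either way), so that the share of members was near the background. The 7 were Hist1h1a, Hist1h2ai, Hist1h3a, Hist1h3h, Hist2h2aa1, Hist2h3b and Hist3h2a, and Hist1h2ao fell. The count rested on single libraries: limma called 0 without Chronic IFNG KP library 3 (7 at an unadjusted p below 0.05), 5 without Chronic IFNG KP library 1, and 5, 3 and 2 without Parental KP libraries 1, 2 and 3. With quantile normalisation, 3 members rose and 2 fell.

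**Figure D2:**
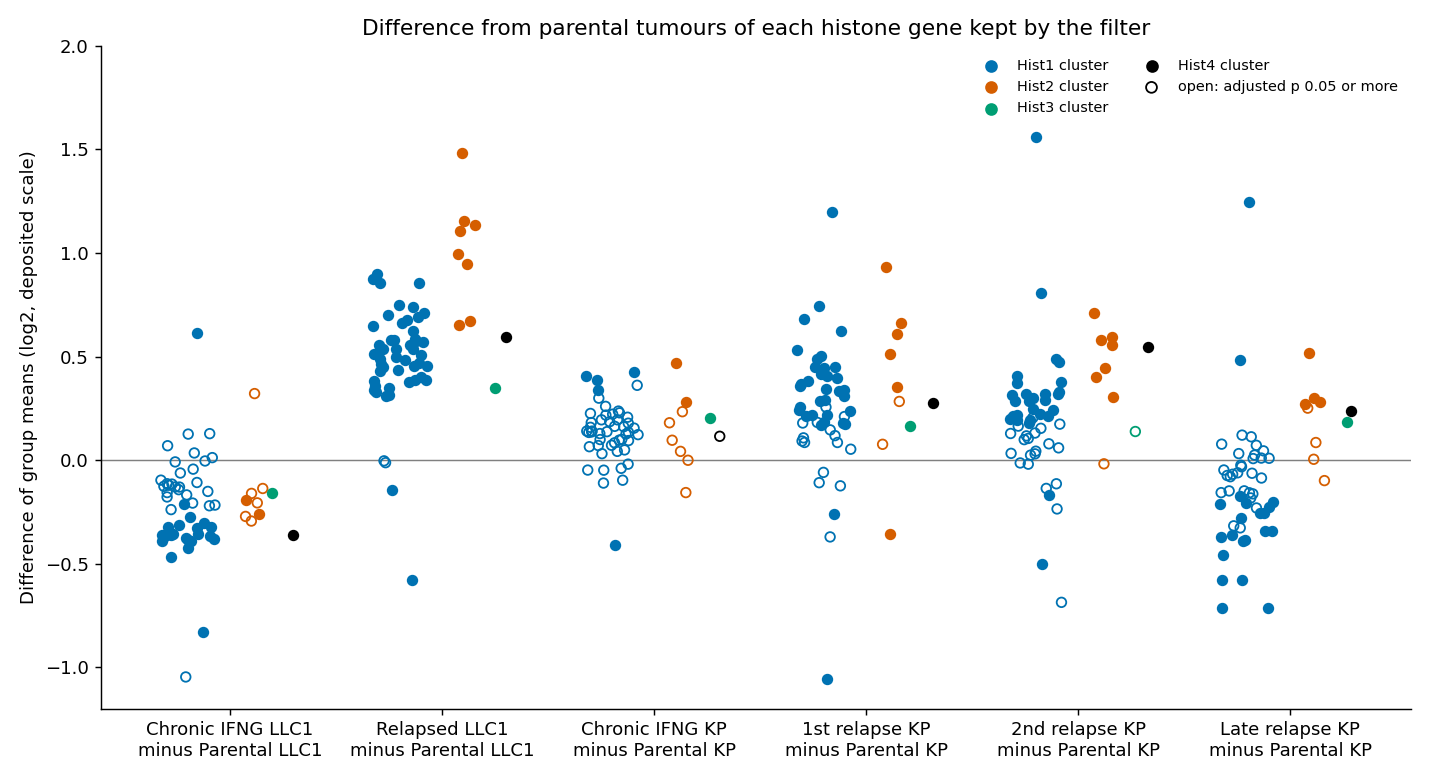
Difference from the parental libraries (log2, deposited scale) of each tested member in the comparisons named on the horizontal axis, coloured by cluster; filled points passed an adjusted p of 0.05 in limma, open points did not. Members of Relapsed LLC1 lie mostly above 0, and those of Late relapse KP spread on both sides, with Hist1h1a at 1.25 and Hist1h2ac at -0.72.

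Among linker histones, Hist1h1a rose in every KP relapse group. It is an H1 subtype known mainly from thymus, spleen and testis, and had 141, 196 and 113 counts in Parental KP, 1010, 678 and 801 in 1st relapse KP, 1243, 1032 and 1302 in 2nd relapse KP, and 894, 944 and 759 in Late relapse KP. Every relapse library lay above the parental range. By limma, mean counts were 5.53-fold (log2 difference 1.20, SE 0.10, adjusted p = 2.8e-07), 7.95-fold (1.56, SE 0.10, adjusted p = 5.1e-09) and 5.78-fold (1.25, SE 0.10, adjusted p = 1.9e-07) of Parental KP. Chronic IFNG KP libraries had 284, 254 and 372 counts of Hist1h1a, 2.02-fold of Parental KP (difference 0.40, adjusted p = 0.0097), and without Chronic IFNG KP library 3 the adjusted p was 0.053. In LLC1, Relapsed libraries had 2217, 2117 and 1902 counts and Parental libraries 868, 1090 and 846, a 2.22-fold difference (log2 0.87, SE 0.08, adjusted p = 1.7e-05). Chronic IFNG LLC1 libraries, with 687, 777 and 863, overlapped the parental ones. The transcript of Hist1h1a is nearly free of shared sequence (99.7% of its 31-base words are unique).

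Of the other somatic H1 genes, 3 fell in Late relapse KP. Hist1h1c, the H1 gene with the most counts in both lines, had 2362, 2375 and 2608 counts in Late relapse KP against 3824, 3648 and 4307 in Parental KP, and the groups did not overlap. It fell to 0.624-fold (difference -0.58, SE 0.09, adjusted p = 9.9e-05). Hist1h1d fell alike, with 1613, 1775 and 1491 counts against 2681, 2461 and 2893 (0.607-fold, -0.58, SE 0.10, adjusted p = 0.00022). Hist1h1e fell to 0.806-fold (-0.26, adjusted p = 0.010), and Hist1h1b did not pass the test in late relapse (1.14-fold, adjusted p = 0.22). Neither Hist1h1c nor Hist1h1d passed the test against Parental KP in the 1st or 2nd relapse libraries (adjusted p between 0.15 and 0.91). In Relapsed LLC1 all 4 rose: Hist1h1b to 1.75-fold, Hist1h1e to 1.59-fold, Hist1h1d to 1.52-fold and Hist1h1c to 1.38-fold.

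The make-up of the H1 messages differed between groups. Hist1h1a made up 1.45% ± 0.46 of H1 counts in Parental KP, 6.63% ± 0.94 in 1st relapse, 9.71% ± 0.50 in 2nd relapse and 10.6% ± 0.95 in Late relapse KP (SD, n = 3 each). Per base of transcript, Hist1h1a stood at 0.181 ± 0.040 of Hist1h1b in Parental KP, 0.641 ± 0.129 in 1st relapse, 1.05 ± 0.09 in 2nd relapse and 0.924 ± 0.047 in Late relapse KP. In LLC1 the share of Hist1h1a was 7.93% ± 0.76 in Relapsed, 5.67% ± 0.46 in Chronic IFNG and 5.58% ± 0.53 in Parental libraries. In Chronic IFNG KP it was 2.61% ± 0.33.

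**Figure D3:**
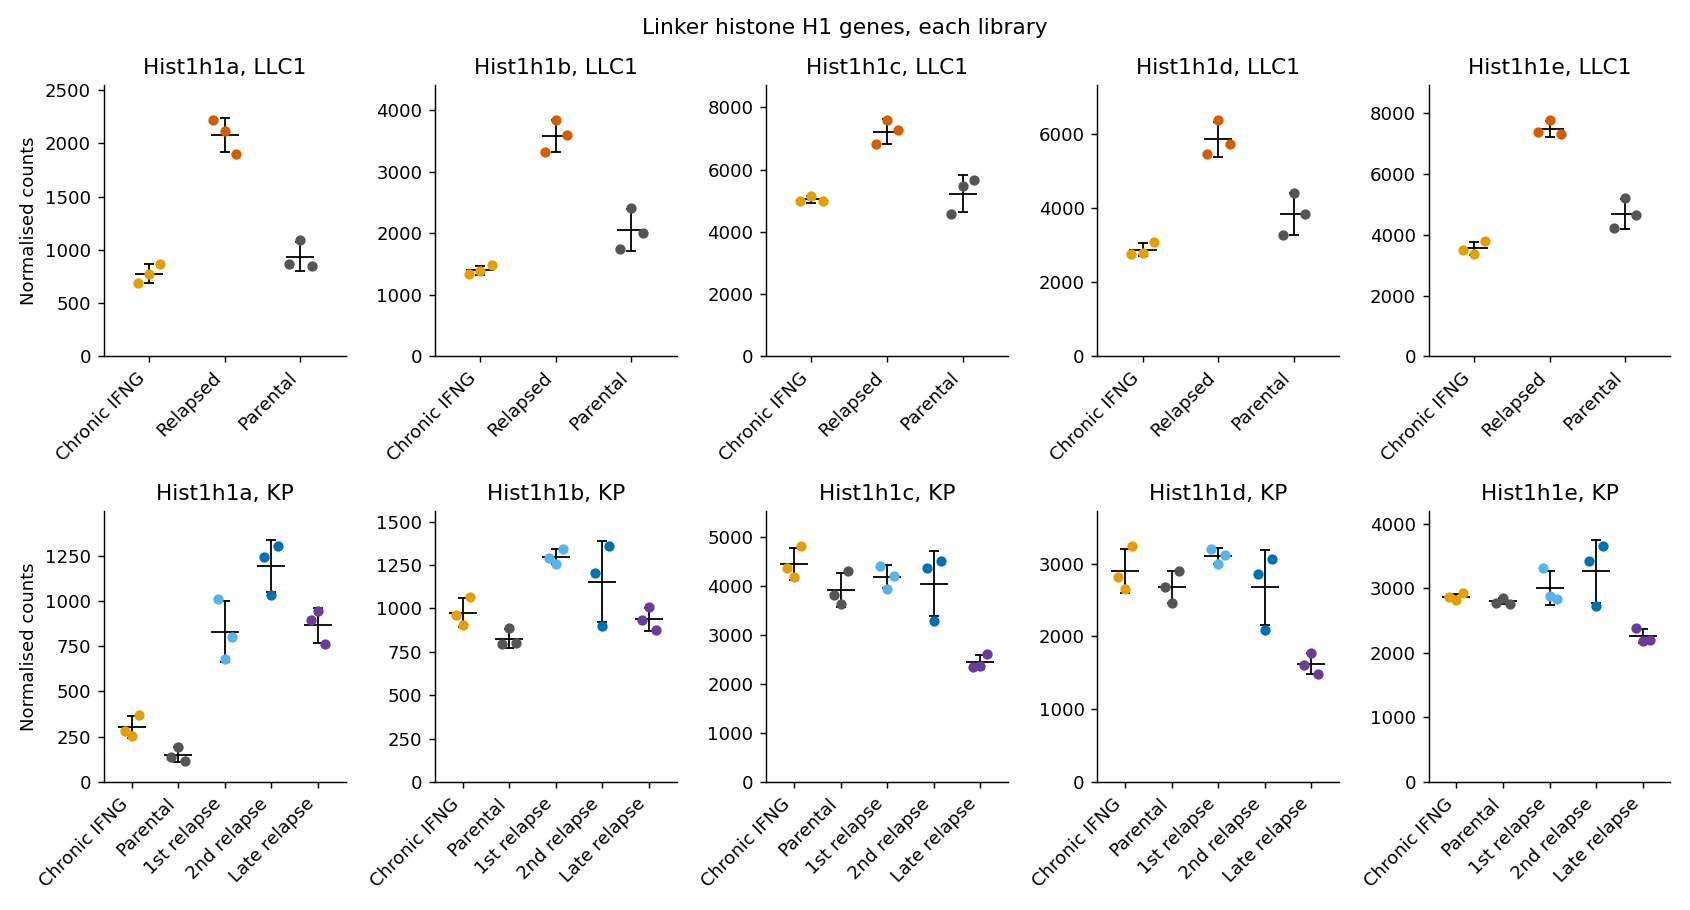
Normalised counts of Hist1h1a to Hist1h1e in each library of LLC1 and KP by group; points are libraries. Hist1h1a lies between 113 and 196 in Parental KP and at 678 or more in every relapse library of KP, while Hist1h1c and Hist1h1d are lowest in Late relapse KP.

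Among H2A genes, those of Hist2 rose in Relapsed LLC1. Hist2h2aa2, the H2A gene with the most counts in both lines, had 7476, 8502 and 8185 counts in Relapsed LLC1 against 3129, 3599 and 3291 in Parental LLC1 (2.41-fold, difference 1.16, SE 0.07, adjusted p = 1.1e-06). Its near copy Hist2h2aa1 had 2632, 3402 and 3005 against 558, 884 and 957 (3.77-fold, 1.48, SE 0.13, adjusted p = 1.5e-05). All 498 words of Hist2h2aa2 also occur in other transcripts, and its copy took between 15.1% and 33.9% of the pair's counts in LLC1 libraries, so the pair is best read as a sum. That sum was 11067 ± 904 counts in Relapsed and 4139 ± 409 in Parental LLC1, 2.67-fold. Hist2h2ac, another H2A gene of Hist2, rose to 2.52-fold in Relapsed LLC1 (adjusted p = 7.6e-07). In KP it rose in each relapse group, to 1.46-fold in 1st relapse, 1.82-fold in 2nd relapse and 1.34-fold in Late relapse KP.

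Hist1h2ac, an H2A gene whose annotated transcript runs 2010 bases past the stem-loop, was lower in each KP relapse group. It had 670, 482 and 709 counts in Parental KP, 479, 450 and 411 in 1st relapse, 350, 248 and 361 in 2nd relapse and 239, 210 and 227 in Late relapse KP. Each relapse group lay below the parental range and late relapse lay below all others. It was at 0.720-fold, 0.515-fold and 0.364-fold of Parental KP, and the late difference was -0.72 (SE 0.08, adjusted p = 4.7e-06). The 1st relapse call (adjusted p = 0.016) was lost without Parental KP library 1 or 3 or without 1st relapse KP library 3 (adjusted p up to 0.080). In Relapsed LLC1 it rose to 1.47-fold (838, 915 and 834 counts against 535, 623 and 598 in Parental LLC1, adjusted p = 0.00025). Of its words 83.2% are unique. Summed with the members grouped with it as copies, the difference was 0.45 in 1st relapse and 0.22 in 2nd relapse KP. As most of its own words are unique, these values describe the group and not this gene.

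Other H2A values rest on copies that share sequence. Hist1h2ab had 2724, 3202 and 3056 counts in Relapsed LLC1, 1374, 1533 and 1417 in Chronic IFNG LLC1 and 1791, 2103 and 1866 in Parental LLC1, 1.56-fold and 0.751-fold of parental (adjusted p = 0.00013 and 0.0076). It was called in none of the 4 comparisons with Parental KP. Hist1h2ao fell to 0.333-fold in Relapsed LLC1 (33.9, 145 and 87.6 counts against 367, 284 and 147 in Parental LLC1) and to 0.151-fold in Chronic IFNG LLC1 (49.8, 16.5 and 54.4 counts; adjusted p = 0.012 and 0.0048). Its near copy Hist1h2ap, which shares 93.8% of the words of Hist1h2ao, rose to 1.81-fold in Relapsed LLC1, and Hist1h2ao took from 0.681% to 11.9% of the pair's counts across LLC1 libraries and from 0.698% to 33.4% across KP libraries. With near-identical copies summed, the group that holds Hist1h2ao rose in Relapsed LLC1 by 0.80. The pair sum was 4995 ± 442 counts in Relapsed and 2978 ± 93 in Parental LLC1. Hist1h2ai rose in Relapsed LLC1 (784, 453 and 375 counts against 120, 67.6 and 230) and has few counts. Its call in Chronic IFNG LLC1 (290, 330 and 482 counts, adjusted p = 0.027) was lost without Parental LLC1 library 1 or 2 or without Chronic IFNG LLC1 library 2 or 3 (adjusted p up to 0.098).

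Among H2B genes, Hist2h2bb rose in the relapse groups of both lines. It had 2935, 3150 and 2836 counts in Relapsed LLC1 against 1022, 1365 and 951 in Parental LLC1 (2.67-fold, difference 1.14, SE 0.09, adjusted p = 8.1e-06). In KP its means were 1.71-fold, 1.60-fold and 1.73-fold of parental in the 1st, 2nd and late relapse groups, and the late libraries had 1258, 1320 and 973 counts against 686, 791 and 581 in Parental KP (adjusted p = 0.00030). Hist1h2bc was 1 of 2 tested H2B genes, with Hist1h2br, that were not called in Relapsed LLC1. There it had 1970, 2118 and 2086 counts against 1927, 1948 and 2335 in Parental LLC1, and the groups overlapped (0.994-fold). In Late relapse KP it fell to 0.541-fold, with 1558, 1647 and 1675 counts against 3153, 2731 and 3130 in Parental KP (difference -0.71, SE 0.07, adjusted p = 1.4e-06). Hist1h2be was the other H2B gene called lower there (0.668-fold, adjusted p = 0.00099). The small 2nd relapse difference of Hist1h2bc (0.873-fold, adjusted p = 0.048) was lost without Parental KP library 1 or 3 or without 2nd relapse KP library 2 (adjusted p up to 0.29). With near copies summed the 2nd relapse difference was 0.15.

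Hist1h2be, an H2B gene that overlaps Hist1h1e on the same strand, fell to 0.668-fold in Late relapse KP (727, 849 and 761 counts against 1180, 1091 and 1229; adjusted p = 0.00099). Hist2h2be fell in 1st relapse KP, to 0.589-fold (263, 238 and 229 counts against 418, 415 and 406; adjusted p = 0.00025), did not pass the test in 2nd or late relapse (adjusted p = 0.81 and 0.96), and rose to 2.42-fold in Relapsed LLC1 (716, 590 and 599 against 260, 250 and 277). Between Late relapse and 1st relapse KP it differed by 0.36 (adjusted p = 0.00028). Hist1h2bg and Hist1h2bb, among the H2B genes with the most counts in both lines, fell to 0.740-fold and 0.714-fold in Chronic IFNG LLC1 and rose to 1.35-fold and 1.46-fold in Relapsed LLC1. Neither was called in Late relapse KP against Parental KP (0.867-fold and 0.864-fold).

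Hist1h2bh, an H2B gene, fell to 0.662-fold in Chronic IFNG LLC1, with 688, 631 and 722 counts against 991, 1215 and 879 in Parental LLC1 (adjusted p = 0.0051), and rose to 1.9-fold in Relapsed LLC1. In KP it rose in 1st relapse (1.45-fold, adjusted p = 0.0054). Hist1h2bq had 565, 471 and 688 counts in Parental KP, 1225, 1225 and 1113 in 1st relapse, 1036, 819 and 1104 in 2nd relapse and 659, 677 and 618 in Late relapse KP. The 1st and 2nd relapse libraries lay above the parental range (2.07-fold and 1.72-fold, adjusted p = 0.00015 and 0.0013), and the late relapse libraries overlapped it. Hist1h2br shares 89.5% of its words with Hist1h2bq, and was looked at after its values were seen. It had 699, 7.68 and 752 counts in Chronic IFNG LLC1, and 60.1, 71.8 and 972 in 2nd relapse KP, so that libraries of 1 group lay far apart. Hist1h2bq took from 61.1% to 99.6% of the pair's counts across LLC1 libraries and from 41.9% to 96.1% across KP libraries.

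All 11 H3 genes rose in Relapsed LLC1. Hist2h3b had 3237, 3486 and 3095 counts in Relapsed LLC1 against 1192, 1432 and 1191 in Parental LLC1 (2.57-fold, difference 1.11, SE 0.07, adjusted p = 1.7e-06), and Hist2h3c2, which shares sequence with it, was at 2.27-fold. Of the Hist1 genes, Hist1h3a rose to 2.22-fold, Hist1h3f, with 2849, 2796 and 2522 counts against 1637, 1726 and 1604, to 1.64-fold, Hist1h3b to 1.82-fold and Hist1h3e to 1.59-fold. In Chronic IFNG LLC1, Hist1h3g fell to 0.600-fold, with 565, 534 and 588 counts against 860, 1117 and 837 in Parental LLC1 (difference -0.47, SE 0.08, adjusted p = 0.0022).

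In KP the H3 genes are described by stage, and differences between stages were not tested for the family. Hist1h3a had 179, 173 and 121 counts in Parental KP, 569, 427 and 511 in 1st relapse, 524, 446 and 668 in 2nd relapse and 329, 325 and 405 in Late relapse KP. All relapse libraries lay above the parental range, at 3.18-fold, 3.46-fold and 2.24-fold (adjusted p = 1.1e-05, 2.0e-06 and 0.00042). With its near copies summed, the late relapse difference was -0.19. Hist1h3h, whose words are only 5.77% unique, had 349, 323 and 324 counts in Parental KP, 809, 504 and 686 in 1st relapse, 321, 163 and 348 in 2nd relapse and 129, 127 and 205 in Late relapse KP. It rose to 2.01-fold in 1st relapse (adjusted p = 0.0027), did not pass in 2nd relapse (0.836-fold) and fell to 0.463-fold in late relapse (adjusted p = 0.0061). Hist2h3b and Hist2h3c2 rose in 1st relapse (1.89-fold and 1.97-fold) and 2nd relapse (1.8-fold and 1.86-fold). Their late relapse calls, at 1.36-fold and 1.38-fold, were lost without Late relapse KP library 1 or 3 or Parental KP library 3, and that of Hist2h3c2 also without Parental KP library 1 (adjusted p up to 0.10 and 0.14). Of the 11 H3 genes, 10 rose in 1st relapse, 7 rose in 2nd relapse, and 3 rose and 3 fell in late relapse. Of all genes, 25.4%, 36.8% and 31.0% rose in the same order, and 25.9% fell in late relapse. Both late relapse shares of the H3 genes were thus near the background.

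Among H4 genes, the sums differed less than those of H2A or H3 in Relapsed LLC1, a difference between families that was not tested. Hist1h4d, an H4 gene with many counts and mostly unique sequence, had 5255, 5387 and 5419 counts in Relapsed LLC1, 2750, 2950 and 3053 in Chronic IFNG LLC1 and 3882, 4498 and 3485 in Parental LLC1. Relapsed libraries were highest and chronic libraries lowest, at 1.35-fold (adjusted p = 0.0016) and 0.738-fold (adjusted p = 0.0061). In Late relapse KP it was at 0.860-fold of Parental KP (adjusted p = 0.027), a call lost without Parental KP library 1 or 2 or Late relapse KP library 2 or 3 (adjusted p up to 0.082). Hist1h4a, whose counts in Chronic IFNG LLC1 (1154, 1228 and 1296) lay below those in Parental LLC1 (1541, 1994 and 1719), fell to 0.7-fold (adjusted p = 0.0041). Hist1h4n had 5103, 5602 and 5358 counts in Relapsed LLC1 against 3382, 4354 and 3860 in Parental LLC1 (1.39-fold, adjusted p = 0.0017). Its near copy Hist1h4m took from 53.5% to 63.8% of the pair's counts across KP libraries and at most 1.95% across LLC1 libraries. The level of each copy thus depends on how reads were split. In KP, Hist1h4n fell to 0.692-fold in late relapse, with 769, 572 and 618 counts against 996, 914 and 922 (adjusted p = 0.00097). Hist1h4c was at 0.824-fold there, a call (adjusted p = 0.030) lost without Parental KP library 1 or 2 or Late relapse KP library 1 or 3 (adjusted p up to 0.087). Hist1h4h fell to 0.721-fold in Late relapse KP, with 1984, 1686 and 2064 counts against 2676, 2756 and 2527 (adjusted p = 0.0030). Hist1h4i fell to 0.561-fold there (226, 180 and 202 counts against 389, 327 and 365; adjusted p = 6.8e-05). Its call in Relapsed LLC1 (0.789-fold, adjusted p = 0.040) was lost whichever of the 6 libraries was left out (adjusted p up to 0.15), and with its near copies summed the difference was 0.56.

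Hist4h4, Hist2h4 and Hist3h2a are described because they lie outside Hist1, and they were chosen after their values were seen. Hist4h4, the H4 gene apart from the larger clusters, had 1576, 1657 and 1594 counts in Relapsed LLC1, 617, 615 and 641 in Chronic IFNG LLC1 and 903, 951 and 902 in Parental LLC1. The groups did not overlap, and relapsed and chronic libraries were at 1.75-fold (adjusted p = 3.3e-06) and 0.679-fold (adjusted p = 0.00068) of Parental LLC1. In KP it had 693, 711 and 646 counts in Parental KP, 991, 882 and 890 in 1st relapse, 1418, 950 and 1302 in 2nd relapse and 918, 914 and 826 in Late relapse KP. All 3 relapse groups rose, to 1.35-fold, 1.79-fold and 1.30-fold (adjusted p = 0.0094, 2.3e-05 and 0.018). The late relapse call was lost without Parental KP library 3 or Late relapse KP library 1 or 2 (adjusted p up to 0.063). Hist2h4 rose in Relapsed LLC1 (1.93-fold, adjusted p = 2.0e-05) and in 2nd relapse KP (1.43-fold, adjusted p = 0.0015). Hist3h2a, an H2A gene of the Hist3 cluster, rose to 1.42-fold in Relapsed LLC1 (adjusted p = 0.00030). Its other calls were small and rested on single libraries. They were 0.846-fold in Chronic IFNG LLC1, lost in 4 of 6 fits that left out a library, 1.30-fold in Chronic IFNG KP and 1.24-fold in 1st relapse KP, each lost in 5 of 6, and 1.27-fold in Late relapse KP, lost in 3 of 6. The libraries whose loss ended these calls were Parental LLC1 1 and 2 and Chronic IFNG LLC1 2 and 3, then Parental KP 1 and 3 with any library of Chronic IFNG KP, any of 1st relapse KP, or library 1 of Late relapse KP. The adjusted p was then at most 0.14.

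The clusters are described side by side here, and the difference between them was not tested. In Relapsed LLC1, 8 of 8 tested Hist2 genes rose, with a median of 1.05, and 46 of 50 Hist1 genes rose and 2 fell, with a median of 0.50. Of all genes, 25.9% rose and 19.5% fell there. Hist2 sums were 23061, 25655 and 23824 counts in Relapsed LLC1 against 8597, 10630 and 9413 in Parental LLC1, 2.53-fold, and the Hist1 sum was at 1.54-fold (117870 ± 4795 against 76447 ± 7465). In Late relapse KP the clusters lay on opposite sides of Parental KP. Hist1 sums were 36497, 34627 and 36738 counts in late relapse against 46358, 44149 and 43791 in Parental KP, 0.803-fold, while Hist2 sums were 10076, 8197 and 9185 against 7942, 7691 and 6128, 1.26-fold. Neither pair of groups overlapped in these counts. As a share of all counts, however, the Hist2 sums of Late relapse KP library 2 and Parental KP library 1 were about level. Of 49 tested Hist1 genes, 2 rose and 19 fell in late relapse, where 31.0% of all genes rose and 25.9% fell. Of 8 Hist2 genes, 4 rose and 0 fell by limma, also 0 at an unadjusted p below 0.05. With so few Hist2 genes, the share that rose is not far from that of all genes.

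The ratio of Hist2 to Hist1 counts was also taken within each library. It was 0.171, 0.174 and 0.140 in Parental KP, 0.203, 0.188 and 0.197 in 1st relapse, 0.222, 0.242 and 0.221 in 2nd relapse and 0.276, 0.237 and 0.25 in Late relapse KP. Each relapse library lay above the parental range, and the late relapse libraries lay above those of 1st relapse. The group means were 1.21-fold, 1.41-fold and 1.57-fold of parental. Chronic IFNG KP libraries (0.161, 0.168 and 0.168) overlapped the parental ones. In LLC1 the ratio was 0.201, 0.208 and 0.206 in Relapsed, 0.130, 0.135 and 0.134 in Chronic IFNG and 0.123, 0.126 and 0.126 in Parental libraries, 1.64-fold and 1.07-fold of parental. Because the ratio is taken within a library, it does not depend on how libraries were scaled.

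**Figure D4:**
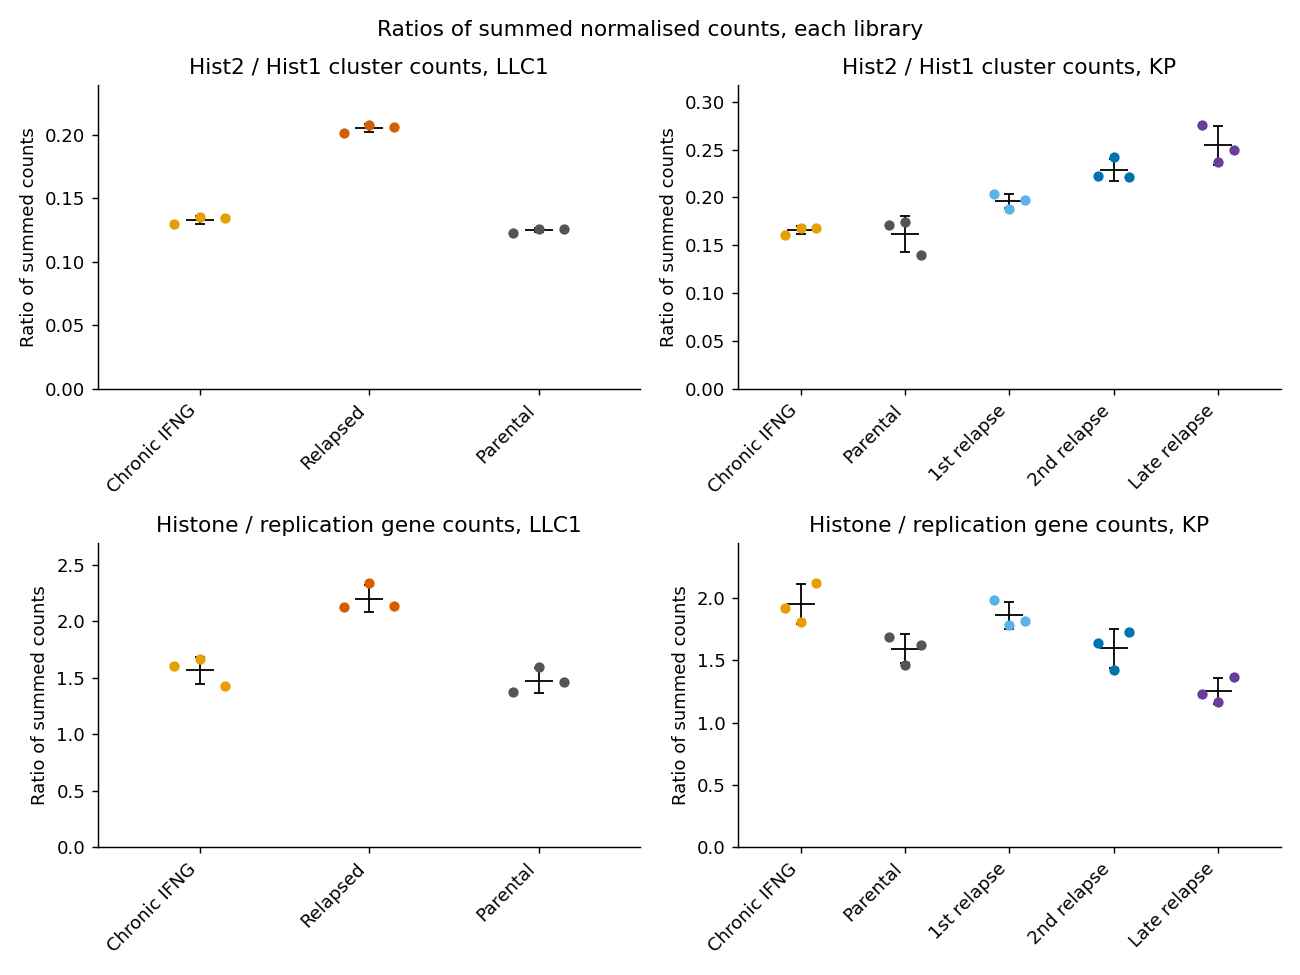
Ratio of summed Hist2 to summed Hist1 counts, and of all members to a list of DNA replication and G1/S genes, in each library by group. Points are libraries. The Hist2 to Hist1 ratio is 0.201 to 0.208 in Relapsed LLC1 against 0.123 to 0.126 in Parental LLC1, and the replication ratio is 1.17 to 1.37 in Late relapse KP, below every parental library.

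Genes lying within 1 Mb of each cluster that are not histones were counted next, in a window chosen after the data were seen. Around Hist2, 32 of 45 tested neighbours rose in Relapsed LLC1 and 0 fell by limma (1 at an unadjusted p below 0.05), with a median of 0.33, beside 25.9% and 19.5% of all genes. Around Hist1, 1 of 14 rose and 5 fell, with a median of -0.03. In Late relapse KP, 11 of 16 Hist1 neighbours fell and 0 rose by limma, also 0 at an unadjusted p below 0.05, with a median of -0.34. Of 44 Hist2 neighbours, 18 rose and 4 fell, with a median of 0.08. Of all genes, 25.9% fell and 31.0% rose there. Among the neighbours with the largest differences, which were chosen after their values were seen, the zinc finger genes Zkscan3 and Zfp184 near Hist1 fell in Late relapse KP by 0.59 and 0.54 (adjusted p = 1.3e-07 and 2.7e-06). Near Hist2, Rnu1b1, a gene of the U1 small nuclear RNA, rose by 2.55 there and the coding gene Mtmr11 by 1.33 (adjusted p = 2.6e-09 and 1.2e-09). In Relapsed LLC1 the zinc finger genes Zkscan8 and Zscan26 near Hist1 were lower by 0.67 and 0.60 (adjusted p = 0.00049 and 0.00022), while the histone genes of that cluster had a median of 0.50. The part of the region as a whole in the histone differences was not tested.

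**Figure D5:**
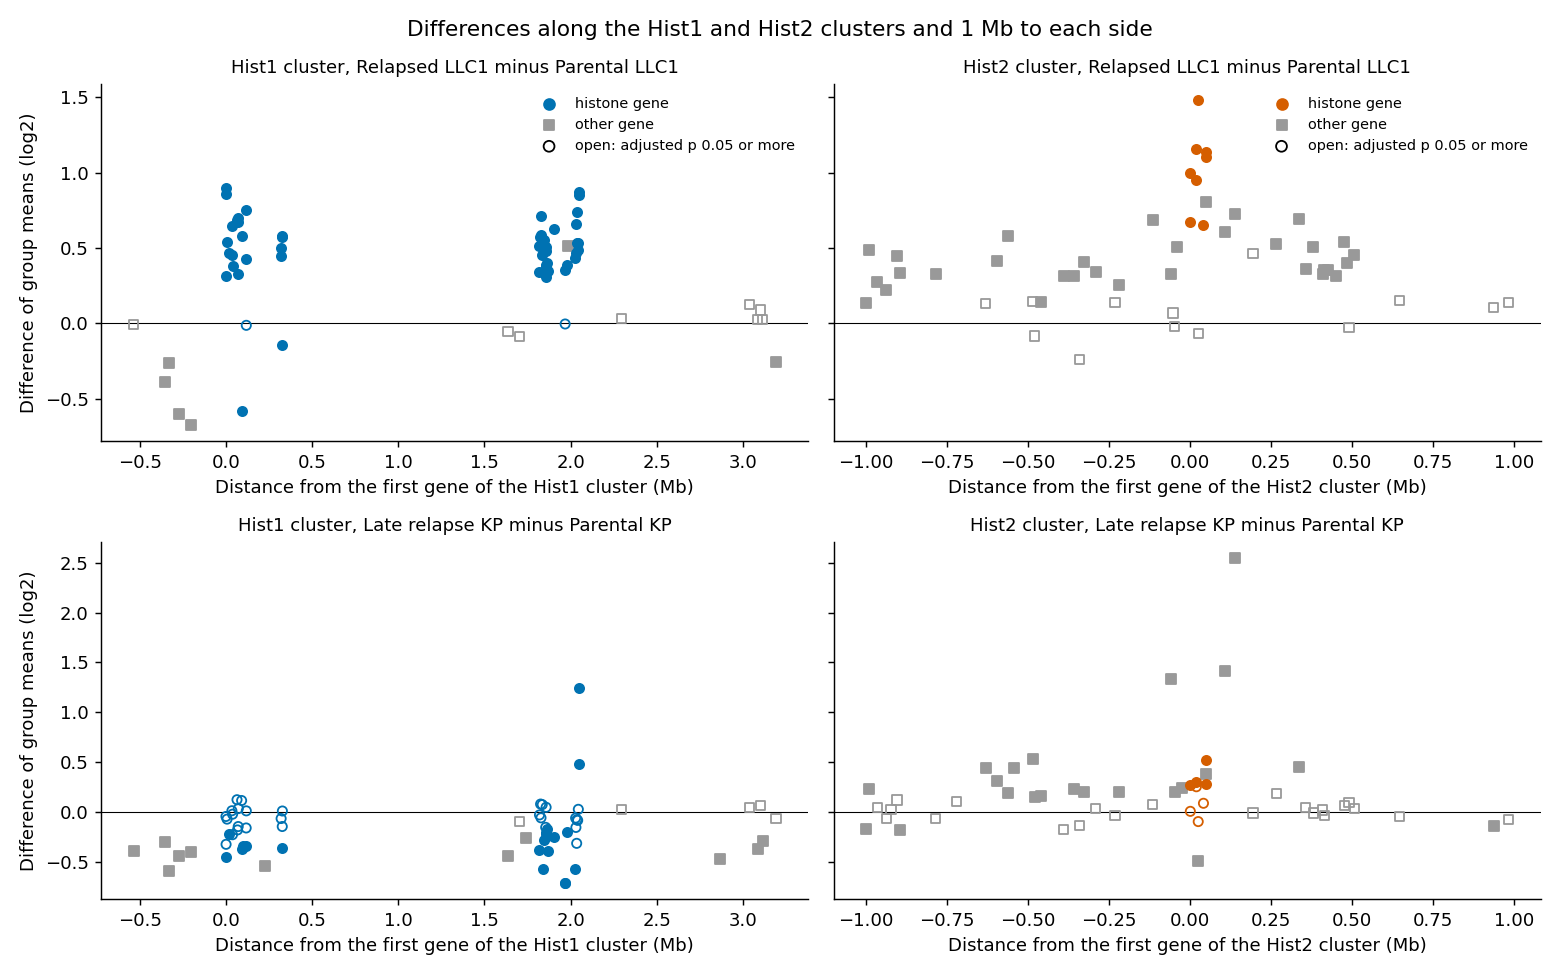
Difference from the parental libraries (log2, deposited scale) against distance in Mb from the first gene of the Hist1 or Hist2 cluster; circles are histone genes and grey squares are other tested genes within 1 Mb, with Relapsed LLC1 above and Late relapse KP below. Squares around Hist2 lie mostly above 0 in Relapsed LLC1 (median 0.33), and squares around Hist1 mostly below 0 in Late relapse KP (median -0.34).

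Members were also grouped by their annotated transcripts. Of 20 tested KP members whose shortest annotated tail runs over 100 bases past the stem-loop, 12 fell and 3 rose in Late relapse KP, with a median of -0.21. Of 23 that end within 100 bases of the stem-loop, 5 fell and 2 rose, with a median of -0.08, and of 16 without the motif, 2 fell and 3 rose, with a median of -0.01. Of all genes 25.9% fell and 31.0% rose, so that the share that fell was near or below the background in the last 2 groups. In Relapsed LLC1 the same grouping gave 19 of 20, 21 of 22 and 16 of 18 members higher. The difference between these groups was not tested.

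Members with little shared sequence were counted apart, by a threshold chosen after the data were seen. Of the 12 members with at least 80% unique words, 10 were tested. All 10 rose in Relapsed LLC1, beside 25.9% of all genes, and 5 fell in Chronic IFNG LLC1, beside 15.5% of all genes. In KP, 3 rose and 2 fell in 1st relapse, 4 rose and 1 fell in 2nd relapse, and 2 rose and 5 fell in late relapse. In 1st and 2nd relapse, the share of these 10 that rose was near that of all genes (25.4% and 36.8%), and the median was 0.08 in each. In late relapse 25.9% of all genes fell. Where all copies were summed into 19 units, 19 rose in Relapsed LLC1 and 11 fell in Chronic IFNG LLC1, and in KP 11 rose and 1 fell in 1st relapse, 10 rose in 2nd relapse, and 5 rose and 8 fell in late relapse. The units were tested in a separate fit, and the shares of all genes called in it are not given here.

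Factors that make histone messages were compared from a list of 21 genes, of which 20 were tested. In Relapsed LLC1, 8 rose and 3 fell, in Chronic IFNG LLC1 6 fell, and in Late relapse KP 3 rose and 5 fell. Of all genes, 25.9% rose and 19.5% fell in Relapsed LLC1, 15.5% fell in Chronic IFNG LLC1, and 31.0% rose and 25.9% fell in Late relapse KP, so the late relapse share that fell was near that of all genes. Slbp, which binds the stem-loop, averaged 1645 ± 31 counts in Relapsed, 1170 ± 39 in Chronic IFNG and 1343 ± 56 in Parental LLC1 (differences 0.22 and -0.15 from parental, adjusted p = 0.0024 and 0.038). The lower value in Chronic IFNG LLC1 did not pass without Parental LLC1 library 1 or 2 or Chronic IFNG LLC1 library 1 or 2 (adjusted p up to 0.12). In KP, Slbp averaged 1051 ± 9 in Parental, 975 ± 21 in 1st relapse, 1401 ± 45 in 2nd relapse and 1376 ± 55 in Late relapse libraries, and the last 2 groups rose (0.30 and 0.28, adjusted p = 4.0e-06 and 1.5e-05). In the same late relapse libraries 19 members were lower. Npat, the coactivator of histone gene transcription, averaged 1460 ± 54 counts in Relapsed against 1210 ± 24 in Parental LLC1 (0.20, adjusted p = 0.0080). In KP it fell in all 3 relapse groups and was lowest in 2nd relapse, with 851 ± 56 counts against 1327 ± 34 in Parental KP (-0.44, adjusted p = 9.2e-06).

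Casp8ap2, a partner of Npat in histone locus bodies, rose in Relapsed LLC1 (1485 ± 260 against 1021 ± 198 counts, 0.40, adjusted p = 0.010) and was not called in any of the 4 comparisons with Parental KP. The U7 particle proteins gave small or no differences: Lsm10 rose in the 3 KP relapse groups by 0.11 to 0.16, and its 1st relapse call was lost with quantile normalisation (-0.024) and without Parental KP library 1 or 2 or 1st relapse KP library 1 or 3 (adjusted p up to 0.12). Lsm11 was called in none of the 8 comparisons. Pou2f1, an octamer-binding factor known to act at H2B promoters, averaged 1754 ± 217 counts in Parental KP, 996 ± 122 in 1st relapse, 1134 ± 111 in 2nd relapse and 1071 ± 59 in Late relapse KP. All 3 relapse groups fell (differences -0.59, -0.46 and -0.52), and Chronic IFNG KP fell by 0.29 (adjusted p = 0.011, or 0.053 without Parental KP library 3).

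Variants coded outside the clusters, which most cells make throughout the cell cycle, were compared from a list of 11. In LLC1, 10 were tested, and 4 rose and 3 fell in Relapsed libraries while 3 fell in Chronic IFNG libraries. Of all genes, 25.9% rose and 19.5% fell in Relapsed LLC1, and 15.5% fell in Chronic IFNG LLC1. In KP, 9 were tested, and 6 rose and 1 fell in 1st relapse, 6 rose and 1 fell in 2nd relapse, 5 rose and 2 fell in late relapse, and 2 rose and 1 fell in Chronic IFNG libraries. Of all KP genes, 25.4%, 36.8% and 31.0% rose in 1st, 2nd and late relapse, and 25.5%, 29.0% and 25.9% fell. In Chronic IFNG KP, 12.8% of all genes rose and 9.0% fell. The shares of variants that fell in late relapse and in Chronic IFNG KP were near these. H2afz, the gene of variant H2A.Z, averaged 7941 ± 278 counts in Relapsed, 3193 ± 143 in Chronic IFNG and 4392 ± 138 in Parental LLC1 (0.79 and -0.41, adjusted p = 1.5e-06 and 0.00078). In KP it averaged 5412 ± 525 in Parental, 6732 ± 626 in 1st relapse, 10650 ± 599 in 2nd relapse and 10076 ± 542 in Late relapse libraries, and the late difference was 0.84 (adjusted p = 4.4e-07). H2afx, whose product marks broken DNA, rose in Relapsed LLC1 (2751 ± 136 against 1140 ± 106 counts, 1.01, adjusted p = 1.2e-05) and in 1st relapse KP (847 ± 100 against 509 ± 56, 0.44). It was not called in 2nd or late relapse. H1f0, the linker histone of resting and differentiating cells, averaged 10716 ± 882 counts in 2nd relapse KP against 3499 ± 62 in Parental KP (1.47, adjusted p = 7.6e-10) and 8197 ± 496 in Relapsed against 5103 ± 697 in Parental LLC1 (0.64). H3f3b, a gene of variant H3.3, was higher than in Parental KP in Chronic IFNG KP and the 3 relapse groups (differences 0.20 to 0.35), and lower in Relapsed than in Parental LLC1 (-0.18, adjusted p = 0.044). The LLC1 call was lost without Parental LLC1 library 1 or 2 or Relapsed LLC1 library 1 or 3 (adjusted p up to 0.16). H3f3a rose in 2nd relapse KP (0.16), a call lost with quantile normalisation (-0.027) and without Parental KP library 1 or 2nd relapse KP library 1 (adjusted p up to 0.062), and fell in Late relapse KP (-0.18). Cenpa, the H3 variant of centromeres, fell in Chronic IFNG LLC1 (469 ± 40 against 818 ± 88 counts, -0.49, adjusted p = 0.00082). Of 18 histone chaperone genes, 4 rose and 4 fell in Relapsed LLC1, and both shares were near those of all genes. In Chronic IFNG LLC1 7 fell. In Late relapse KP 3 rose, a share below that of all genes, and 7 fell, beside 25.9% of all genes. Among these 7 was Atrx, lower by 0.62 (5231 ± 216 against 8310 ± 118 counts).

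A list of genes of DNA replication and G1/S, the entry into S phase, gives another view of that phase and partly overlaps the factors above. Of 41 tested genes of this list, 13 rose and 2 fell in Relapsed LLC1 (median 0.11), near the 25.9% of all genes that rose, and 28 fell in Chronic IFNG LLC1 (median -0.27), beside 15.5% of all genes, where Rrm2, a ribonucleotide reductase subunit, had 1025 ± 197 counts against 1867 ± 161. Of 40 tested in KP, 20 rose and 4 fell in 1st relapse, 22 rose and 4 fell in 2nd relapse, and 17 rose and 3 fell in late relapse (medians 0.14, 0.17 and 0.11), where 25.4%, 36.8% and 31.0% of all genes rose. Rrm2 averaged 710 ± 104 counts in Parental, 1017 ± 111 in 1st relapse, 2639 ± 252 in 2nd relapse and 1365 ± 221 in Late relapse KP, and late relapse was higher by 0.64 (adjusted p = 9.0e-05). Of 24 mitosis genes, 18 rose and 0 fell in Late relapse KP by limma (1 fell at an unadjusted p below 0.05; median 0.28), 24 fell in Chronic IFNG LLC1 (median -0.48), and 16 rose in Relapsed LLC1 (median 0.28), where 31.0% of all genes rose, 15.5% fell and 25.9% rose in the same order.

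Set against this list within each library, histone counts were low in Late relapse KP. The ratio of all members to the replication genes was 1.69, 1.46 and 1.62 in Parental KP, 1.99, 1.78 and 1.81 in 1st relapse, 1.64, 1.42 and 1.72 in 2nd relapse and 1.23, 1.17 and 1.37 in Late relapse KP. The late relapse libraries lay below all others, at 0.789-fold of the parental mean, and those of 2nd relapse overlapped Parental KP. Chronic IFNG KP libraries, at 1.92, 1.81 and 2.12, lay above the parental ones. In LLC1 the ratio was 2.13, 2.34 and 2.13 in Relapsed, 1.60, 1.66 and 1.43 in Chronic IFNG and 1.37, 1.59 and 1.46 in Parental libraries. Relapsed LLC1 stood at 1.49-fold of parental, and the chronic libraries overlapped the parental ones.

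Other measures moved with these groups. In KP, the fibroblast marker list summed to between 724 and 1117 CPM in Parental KP, 3036 to 4273 in 1st relapse, 89.4 to 120 in 2nd relapse and 616 to 2656 in Late relapse KP. Of 11 tested, 9 rose in 1st relapse, 10 fell in 2nd relapse and 1 rose in late relapse, and none of the listed genes was at 0. A list of 10 of macrophage and monocyte markers summed to 87.4 to 118 in Parental, 317 to 352 in 2nd relapse and 217 to 330 in Late relapse KP. Of the 3 tested, 2 rose and 1 fell in 2nd relapse and 2 rose in late relapse, while Adgre1, a defining macrophage gene, was at most 0.704 CPM in any KP library. Most of the macrophage sum came from Mrc1 (39.4 to 292 CPM across KP libraries) and Cd14 (12.9 to 65.6), while Csf1r was at most 2.34 and C1qa at most 1.74. The 6 pan-leukocyte markers summed to 85.4 to 121 CPM in Parental, 25.1 to 42.4 in 1st relapse, 25.6 to 29.5 in 2nd relapse and 103 to 132 in Late relapse KP, with none at 0. Most of that sum came from Cd53, at 16.5 to 118 CPM across KP libraries. Of the 2 tested, Cd53 and Lcp1, 1 fell in 1st relapse, 2 fell in 2nd relapse and 1, Cd53, rose in late relapse, a call lost without Parental KP library 1 or Late relapse KP library 1 or 2 (adjusted p up to 0.10). In LLC1 the list summed to 18.7 to 27.8 CPM in Relapsed, 12.4 to 22.2 in Chronic IFNG and 29.4 to 33.5 in Parental libraries, and the 1 gene tested, Arhgdib, fell in both groups. None of the T and NK cell, B cell or neutrophil markers passed the filter in either line. In LLC1 a list of 7 erythroid markers summed to between 3.74 and 38.7 CPM in Relapsed and between 0.535 and 1.52 in Parental libraries, and the 1 that was tested rose. Non-polyadenylated RNAs other than histone messages were compared because they share the dependence on total RNA: of 11 tested in LLC1, 1 rose in Relapsed libraries, Rn7sk by 0.53, and 0 fell by limma (1 at an unadjusted p below 0.05). Of 12 tested in KP, 2 fell in late relapse and 0 rose by limma (1 at an unadjusted p below 0.05), where 25.9% of all genes fell and 31.0% rose. The U1 RNA gene Rnu1b1, which rose by 2.55 in the same libraries, was not among these 12. In Chronic IFNG LLC1, 1 rose and 4 fell (median -0.42), where 15.5% of all genes fell. In Relapsed against Chronic IFNG LLC1, 6 rose and 1 fell (0.35), where 31.5% rose. In KP, 1 rose and 5 fell in 1st relapse (-0.24) and 4 fell in 2nd relapse (-0.42), where 25.5% and 29.0% fell. Late against 1st relapse KP gave 5 that rose and 3 that fell (0.21), and 1 rose in Chronic IFNG KP. The part of these measures in the histone differences was not tested.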

How the data were processed

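RNA was measured in 24 libraries, 3 per group, 9 of LLC1 and 15 of KP. Per the labels, live CD45- cells were sorted from day 15 tumours, and total RNA was made into stranded libraries (TruSeq Stranded Total RNA) and sequenced in pairs of 50 bases. Salmon 1.8.0, DESeq2 1.34.0, cutadapt 2.9 and the build GRCm38 (mm10) are given, per the submitters' processing notes, without their roles. The strand setting used in counting is not given in the sources used here.

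The authors deposited 1 table per line of variance-stabilised log2 values. The form of the values (a common lowest value, 8.03 in LLC1 and 8.17 in KP, shared by genes without reads) fits DESeq2's transformation, and normalised counts were back-calculated from it. After division by each library's step, 71.8% to 78.5% of low values lay within 0.15 reads of a whole number. The step was the one that gave the highest such share in that library. The 30% for a step fixed in advance is therefore not the chance level of these shares. The counts, and the depths that rest on the same step, are estimates, and no count test was run. The precision of each value depends on depth (13394090 to 34961559 reads) and on 3 libraries a group.

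Differences were tested on the deposited log2 values with limma 3.58.1 (R 4.3.3, with a mean-variance trend, all groups of a line in 1 fit) and adjusted by the Benjamini-Hochberg method over all genes that passed the filter, 10581 in LLC1 (99.1% of counts) and 11193 in KP (99.0%). The procedure was tested on simulated data. The tables of the lines were normalised separately, so tests stay within a line. Gene names came from GENCODE vM21, in which 70 (LLC1) and 85 (KP) identifiers had no symbol, and RefSeq promoters from GRCm38.p6.

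For each comparison up to 6 called members with the highest and up to 6 with the lowest differences were named. Also named were the 3 members with the most counts in each family and line, the testis genes, 5 factors of histone message production, 6 variants and up to 3 called genes of each other list. Members and lists were chosen with earlier results of these data known. Alternatives covered filters, scalings, pseudocount, copies summed, settings of the fit, a replicate block and leaving out each library. Same-numbered libraries of Parental and 1st relapse KP deviated together (correlations 0.15, 0.11 and 0.21), a pairing seen in the data and not stated in the labels.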

Additional observations from a re-analysis of the deposited data

Results flagged for a closer look

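Sums of some histone sets lay on opposite sides of Parental in the lines: every library of the group in LLC1 moved one way and every library of the group in KP the other. The difference between lines was not tested, since the tables were normalised separately. The groups paired here share a name or a stage only in part, and Relapsed LLC1 has no stage in its label.

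In Chronic IFNG, the H2B sum stood at 0.768-fold of Parental in LLC1 and 1.10-fold in KP, and the H3 sum at 0.787-fold and 1.26-fold. The Hist1 sum stood at 0.797-fold in LLC1 and 1.13-fold in KP, the Hist3 sum at 0.844-fold and 1.35-fold, and Hist4h4 at 0.679-fold and 1.14-fold. In Chronic IFNG KP, limma called 0 of 16 tested H2B genes, and 3 of 11 H3 genes higher. Of 49 Hist1 genes it called 4 higher and 1 lower. Of all genes, 12.8% rose and 9.0% fell there. Hist4h4 was not called, and the call of Hist3h2a, the only tested Hist3 gene, rested on single libraries. The summed counts of all members overlapped the parental range.

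Relapsed LLC1 was set beside Late relapse KP. The sum of all members stood at 1.65-fold of Parental in Relapsed LLC1 and 0.876-fold in Late relapse KP, and that of H1 at 1.57-fold and 0.783-fold. H2B stood at 1.5-fold in Relapsed LLC1 and 0.879-fold in Late relapse KP, H4 at 1.46-fold and 0.849-fold, and Hist1 at 1.54-fold and 0.803-fold. The Hist2 sums, at 2.53-fold in Relapsed LLC1 and 1.26-fold in Late relapse KP, lay above Parental in both.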

How the results depend on the processing

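Directions of the medians over members held in all settings run. With each group of copies counted once, as 19 units, the late relapse median was 0.00095, against -0.09 over members. Leaving out each library in turn gave between 19 and 31 called members for Chronic IFNG against Parental LLC1 (median -0.26 to -0.14), 56 to 57 for Relapsed against Parental LLC1 (0.48 to 0.59), 54 to 56 for Relapsed against Chronic IFNG LLC1 (0.74 to 0.79), 0 to 7 for Chronic IFNG KP (0.09 to 0.18), 30 to 39 for 1st relapse (0.22 to 0.29), 24 to 44 for 2nd relapse (0.17 to 0.29), 19 to 24 for late relapse (-0.14 to -0.06) and 40 to 49 for late against 1st relapse (-0.40 to -0.33).

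The stricter filter of 3 log2 units kept 36 members in LLC1 and 10 in KP, so fewer could be called. It gave 35 calls for Relapsed LLC1 against each other group (median 0.88 against Chronic IFNG), 0 for Chronic IFNG KP by limma (also 0 at an unadjusted p below 0.05), 1 for 1st relapse (median 0.11), 5 for 2nd relapse, 6 for late relapse (-0.22) and 9 for late against 1st relapse (-0.45). Without a filter, Chronic IFNG KP had 4 calls, and Relapsed against Chronic IFNG LLC1 a median of 0.73. Quantile normalisation gave 5 calls in Chronic IFNG KP and a median of 0.72 for Relapsed against Chronic IFNG LLC1, and median centring 0.73. A pseudocount of 10 gave medians of -0.32 (Chronic IFNG LLC1), 0.69 (Relapsed LLC1), 1.02 (Relapsed against Chronic IFNG LLC1), 0.42 (1st relapse), 0.32 (2nd relapse) and -0.57 (late against 1st relapse), with 5 calls in Chronic IFNG KP. An equal total gave medians of 0.72 (Relapsed LLC1), 1.01 (Relapsed against Chronic IFNG LLC1), 0.22 (Chronic IFNG KP), 0.50 (1st relapse), -0.17 (late relapse) and -0.68 (late against 1st relapse), with 23 calls in 2nd relapse. It moved the median of all genes to -0.09 in 2nd relapse and to -0.11 in late against 1st relapse. The causes were not tested.

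With copies summed, medians were -0.34 (Chronic IFNG LLC1), 0.80 (Relapsed LLC1), 0.96 (Relapsed against Chronic IFNG LLC1), 0.44 (1st relapse), -0.28 (late relapse, 45 calls) and -0.64 (late against 1st relapse), with 2 calls in Chronic IFNG KP. Members that took the opposite sign of their own value, since each then carries the sum of its copies, were Hist1h2ai (-0.16) and Hist1h3h (-0.34) in Chronic IFNG LLC1, Hist1h2ao (0.80), Hist1h2bc (0.51) and Hist1h4i (0.56) in Relapsed LLC1, Hist1h4i (0.94) in Relapsed against Chronic IFNG LLC1, Hist1h2ao (0.32) in Chronic IFNG KP, Hist1h2ac and Hist1h2ao (0.45 each) and Hist1h4i (0.31) in 1st relapse, Hist1h2ac (0.22), Hist1h2bc (0.15) and Hist1h3h (0.36) in 2nd relapse, Hist1h2bh and Hist1h2bq (-0.28 each), Hist1h3a (-0.19) and Hist1h4a (-0.32) in late relapse, and Hist1h2ao (-1.04) in late against 1st relapse. Hist1h2ac has at least 80% unique words, so its summed values describe its group of copies and not the gene itself. Quantile normalisation turned Lsm10 in 1st relapse (-0.024) and H3f3a in 2nd relapse (-0.027).

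Over all genes, the split of higher and lower calls moved from 955 and 1641 to 1227 and 1329 with an equal total (Chronic IFNG LLC1), from 2742 and 2067 to 2748 and 3026 without a filter (Relapsed LLC1), from 1431 and 1007 to 1262 and 1386 with quantile normalisation (Chronic IFNG KP), from 2846 and 2851 to 2407 and 3597 (quantile) or 3479 and 2087 (equal total; 1st relapse), from 4117 and 3250 to 3157 and 4331 (equal total, 2nd relapse), from 3468 and 2897 to 2873 and 3557 (quantile, late relapse) and from 2754 and 2626 to 1833 and 3892 (equal total, late against 1st relapse).

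Outside Parental and 1st relapse KP, no 2 groups had correlations over 0.1 for all 3 same-numbered pairs (-0.30 to 0.27), and 1 of 9 LLC1 and 8 of 15 KP libraries agreed best with their own number. With a replicate block the counts of called members were 30, 58, 56, 9, 42, 36, 28 and 49, in the order of the first paragraph, and no call of a named gene changed in 1st relapse against Parental KP. Of all values recomputed for members, factors, markers and neighbours, 7442 kept direction and side of the threshold, 348 fell below it, 119 passed it and 20 took the opposite sign.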
